A study of Mus musculus with 19 samples.

Results

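The comparison described here sets the response to alpha1 antitrypsin (AAT) in fat against the response in pancreatic lymph nodes (PLNs) of female NOD/LtJx mice, a strain that develops autoimmune diabetes. It was chosen by its samples: 10 of the 19 arrays of the series, namely AAT-treated fat (fat AAT, 2 arrays), fat of new onset diabetic mice (fat DIA, 2), AAT-treated PLNs (PLN AAT, 4) and diabetic PLNs (PLN DIA, 2). The treated mice had become diabetic before AAT was given, and the DIA mice had the disease without the agent. The labels give no age, AAT dose or fat depot, and do not state whether each array holds a separate mouse. Signals of normoglycemic mice (NOR, 2 arrays of fat and 4 of PLNs) are given for orientation. The NOR arrays and 3 arrays of fat from mice given another treatment, Power Mix, also entered the fit. Their means are not part of the difference, but they share in the estimate of spread behind every SE and p.

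Each array measured one MAS5 signal, an intensity on a linear scale, for 45037 probe sets, which cover 18193 genes. For each probe set the AAT minus DIA difference of log2 signals was taken in fat and in PLNs, and the PLN value was subtracted from the fat value in one linear model (limma). This fat-minus-PLN difference is positive where AAT arrays stood higher against DIA arrays in fat than they did in PLNs. It asks which genes and functions answered AAT unlike in an insulin target tissue and in the node that drains the pancreas. A log2 value of 1 is a 2-fold change. In bulk tissue, fewer cells of a type and less RNA per cell cannot be told apart.

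AAT is a circulating serine protease inhibitor that restrains neutrophil elastase and is also studied as an anti-inflammatory agent. Fat cells take up glucose under insulin and turn it into fatty acids and triglyceride, and the enzymes of that route are switched on by SREBP-1c and ChREBP. Sterol synthesis is switched on by SREBP-2, and INSIG1 holds the SREBP precursors back in the endoplasmic reticulum. PLNs hold B and T lymphocytes with macrophages, endothelium and stroma, and are an early site of priming against islet antigens.

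No probe set passed an adjusted p of 0.05 for the fat-minus-PLN difference in limma (0% in either direction), and the smallest adjusted p was 0.107. At an unadjusted p under 0.05 there were 3667, against 2251.85 that this threshold alone gives over 45037 tests. All 3667 (8.14%) also differed by over 2-fold, so they pass the thresholds that the study's methods state (2-fold and an unadjusted p of 0.05), here called the study thresholds. Of these, 2309 (5.13% of all probe sets) were higher and 1358 (3.02%) lower in the difference. That split depended on the scaling: it was 872 higher and 2796 lower after median centring, and 1410 higher and 1956 lower after quantile normalization. Over genes, each represented by its brightest probe set on average, 731 (4.02%) were higher and 850 (4.67%) lower. Those 2 shares are the background for all list counts in the difference. Everything below that is said to pass the study thresholds therefore failed the adjustment over all probe sets, unless an adjusted p is given.

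The sides of the difference had unequal tests. In fat, AAT against DIA, no probe set was called in limma (0%, smallest adjusted p 0.246). An unadjusted p under 0.05 was found for 1290, fewer than the 2251.85 that this threshold alone gives. There 622 (1.38%) were higher and 634 (1.41%) lower in AAT at the study thresholds, 1256 in all (2.79%). In PLNs, 694 probe sets (1.54%) were called, 357 higher (0.793%) and 337 lower (0.748%) in AAT. That PLN count depended on single arrays: it was 39 without PLN DIA array 1 and 2642 without PLN DIA array 2, and 1719, 1619 and 306 without PLN AAT arrays 1, 2 and 4. Leaving out fat DIA array 1 or 2, which enter only the shared estimate of spread, gave 367 and 380.

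The median of all probe sets was not at 0. It was 0.48 for the difference, −0.05 in fat and −0.58 in PLNs, and over genes 0.27, −0.01 and −0.30. Single genes are therefore given as log2 values above or below the probe set median, and lists as medians above or below the gene median, whereas every p tests the difference as measured. The median standard error (SE) was 1.38 for the difference, 1.04 in fat and 0.903 in PLNs.

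Arrays were all scaled to the same trimmed mean, but 3' to 5' ratios, which depend on RNA quality, moved with the groups. The actin 3' to 5' signal ratio was 9.08 and 5.87 in fat AAT, against 15.2 and 15.5 in fat DIA, and ran from 1.23 to 2.01 in PLN AAT, against 0.881 and 1.10 in PLN DIA. The Gapdh ratio reached 20.6 and 25.0 in PLN AAT arrays 2 and 4, against at most 10.8 in PLN DIA. Median signals were 176 and 244 in fat AAT, 228 and 201 in fat DIA, 92.3 to 178 in PLN AAT, and 279 and 152 in PLN DIA. Their part in the results was not tested beyond the 2 fits that take each ratio as a covariate, whose counts are given with the processing alternatives. Marker genes fitted the tissue labels: the summed signal of 17 adipocyte markers was 338223 to 571548 in the 4 fat arrays and 4722 to 61902 in the 6 PLN arrays, and that of 20 T cell markers 4022 to 5755 in fat and 45824 to 73848 in PLNs.

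Most of the probe sets that passed took their difference from the PLN side. Among the 2309 higher ones, 327 (14.2%) were higher in fat AAT and 1634 (70.8%) lower in PLN AAT at the study thresholds (1.38% and 14.4% of all probe sets), and 51 did both. Among the 1358 lower ones, 182 (13.4%) were lower in fat AAT and 1013 (74.6%) higher in PLN AAT (1.41% and 5.52% of all), and 33 did both. The 2 sides share no array, and across all probe sets their responses had a Pearson correlation of 0.07, given as a description over probe sets, which are not replicates.

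**Figure D1:**
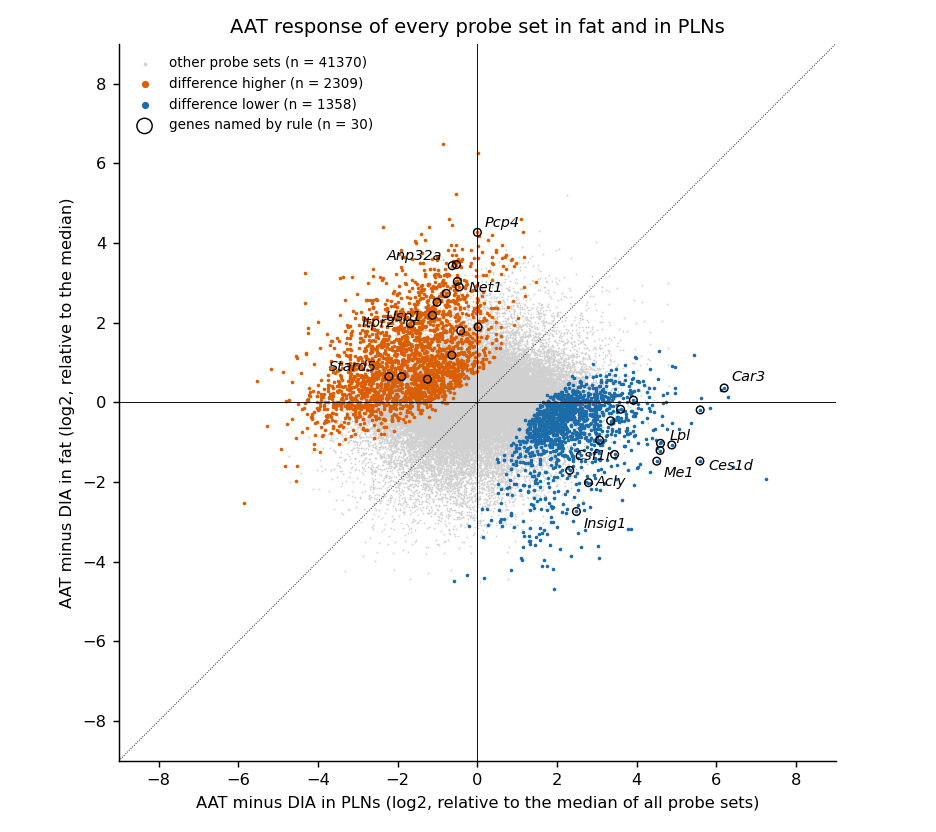
AAT minus DIA in fat (vertical axis) against AAT minus DIA in PLNs (horizontal axis) for 45037 probe sets, both as log2 relative to the median of all probe sets. Orange points (2309) were higher and blue points (1358) lower in the fat-minus-PLN difference at the study thresholds, grey points are the rest, circles mark the 30 genes named by rule, and the dotted line marks equal responses. After median centring of the arrays the counts were 872 higher and 2796 lower.

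The NOR arrays, which enter the difference only through the shared estimate of spread, describe where these genes are found. Probe sets higher in the difference had ordinary NOR levels: 50.7% lay above the median signal, and 30.8% were over 2-fold higher in fat NOR than in PLN NOR (29.4% over all probe sets). Those lower in the difference were mostly well expressed, with 86.9% above the median signal (50% over all), while 27.0% were over 2-fold higher in fat NOR. These shares were taken for the main scaling only, and after median centring the sets were others, with 872 higher and 2796 lower.

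Lipid synthesis genes stood at the low end of the difference. Of the 27 genes measured for fatty acid and triglyceride synthesis, 12 were lower and 0 higher in the difference at the study thresholds, 44.4% against 4.67% of all genes. Their median was −2.31 in the difference, −1.52 in fat and 0.46 in PLNs. Relative to all genes, 26 of the 27 lay lower in fat AAT than in fat DIA, 13 of them at the study thresholds (1.26% of all genes were lower there). In PLN AAT 19 lay higher than in PLN DIA, and at the study thresholds 4 were higher and 4 lower (8.61% and 11.3% of all genes). Without PLN DIA array 1 the median of the difference was −1.12, and with the Gapdh ratio as a covariate it was −0.83. No member was called in the difference or in fat, and 2 were called higher in PLNs, Acly and Me1 (1.4% of all genes were called higher there and 0.533% lower).

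Of the 30 genes named by rule (for each direction the 15 with the smallest p among well expressed probe sets past the study thresholds whose sign held with every array left out), the lower ones include Insig1, Me1 and Acly. Insig1 encodes the protein that retains SREBP in the endoplasmic reticulum. Its signal was 1144 and 800 in fat AAT, against 5390 and 8102 in fat DIA. In PLNs it was 5511, 2618, 4156 and 5621 in PLN AAT, against 1368 and 952 in PLN DIA. The groups did not overlap in either tissue and lay in opposite orders, with fat AAT near the fat NOR signals of 1148 and 1093. The difference was −5.18 ± 0.82 (SE, adjusted p 0.107 in limma), from −2.74 ± 0.62 in fat and 2.49 ± 0.54 in PLNs.

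Me1, cytosolic malic enzyme, yields NADPH for fatty acid synthesis. It had signals of 1678 and 2339 in fat AAT, against 4589 and 7067 in fat DIA, and of 176, 668, 246 and 393 in PLN AAT, against 39.3 and 11.7 in PLN DIA. Again no group overlapped, although the fat signals were all above those of PLNs. Both PLN DIA signals lay below 47.4, the 20th percentile of all values, so the size of the PLN value is uncertain. The difference was −5.93 ± 0.89 (adjusted p 0.107), and the PLN side, 4.51 ± 0.58, was called (adjusted p 0.00234). The 4 PLN NOR arrays lay between 146 and 154.

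Acly, ATP citrate lyase, makes the cytosolic acetyl-CoA from which fatty acids and sterols are built. It stood at 4222 and 3242 in fat AAT, against 13867 and 17252 in fat DIA, and at 18728, 18622, 15007 and 30471 in PLN AAT, against 2420 and 7706 in PLN DIA. AAT arrays thus lay below every DIA array in fat and above every DIA array in PLNs. Its difference was −4.75 ± 0.76 (adjusted p 0.107), with 2.79 ± 0.50 in PLNs (adjusted p 0.0289). Of 6 Acly probe sets 4 had a negative difference, and the 6 ran from −4.75 to 1.95.

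By role, the supply of carbon and NADPH had 4 of 8 genes lower at the study thresholds (median −2.03): Me1, Acly, Acss2 (−3.21), which makes acetyl-CoA from acetate, and Pgd. Pgd, the 6-phosphogluconate dehydrogenase of the pentose phosphate pathway, had 3801 and 1958 in fat AAT, against 7691 and 15102 in fat DIA, and 11166, 9588, 13928 and 11624 in PLN AAT, against 6571 and 5754 in PLN DIA. Its groups did not overlap in either tissue. The difference was −3.36 ± 0.63 (adjusted p 0.229), and all 4 Pgd probe sets were negative.

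Both the rate-setting carboxylase Acaca (−2.73) and fatty acid synthase, Fasn (−3.51), passed the study thresholds, which made 2 of 3 genes of that step. Among elongases and desaturases 3 of 6 passed: Elovl6 (−2.82), Scd1 (−2.60) and Elovl5 (−2.58). Among genes of glycerolipid assembly 3 of 7 passed: Agpat2 (−3.84), Gpam (−2.82) and Dgat2 (−2.75). Agpat2, which makes phosphatidic acid, had 1841 and 1183 in fat AAT, against 7501 and 10563 in fat DIA, and 151, 290, 137 and 215 in PLN AAT, against 75 and 164 in PLN DIA. The fat groups did not overlap, while the PLN groups did. The 3 regulators of the list, the SREBP-1c gene Srebf1, the ChREBP gene Mlxipl and Thrsp, gave 0 of 3 past the thresholds, with a median of −2.31.

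Of 18 genes of cholesterol synthesis and uptake, 4 were lower (22.2%, against 4.67% of all genes) and 0 higher. Their medians were −1.26 in the difference, −0.69 in fat and 0.19 in PLNs. Relative to all genes, 17 of the 18 lay lower in fat AAT than in fat DIA, 3 of them at the study thresholds. The median of the difference was −0.71 without fat AAT array 2, −0.82 without fat DIA array 2 and −0.41 with means over probe sets. The 4 were Insig1, Fdft1 (−3.03), Idi1 (−2.83) and Hmgcs1 (−2.45). Non-overlapping groups in opposite orders in the 2 tissues were found in these 4 of the 18, against 235 of all genes (1.29%). Passing the thresholds favours that pattern, so nothing is read from all 4 having it. Hmgcs1, which makes HMG-CoA, had 3238 and 3117 in fat AAT, against 5938 and 4332 in fat DIA, and 15137, 8064, 16918 and 20968 in PLN AAT, against 6225 and 5552 in PLN DIA. Fdft1, squalene synthase, had 4 probe sets that did not go one way, from −3.03 to 3.79.

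**Figure D2:**
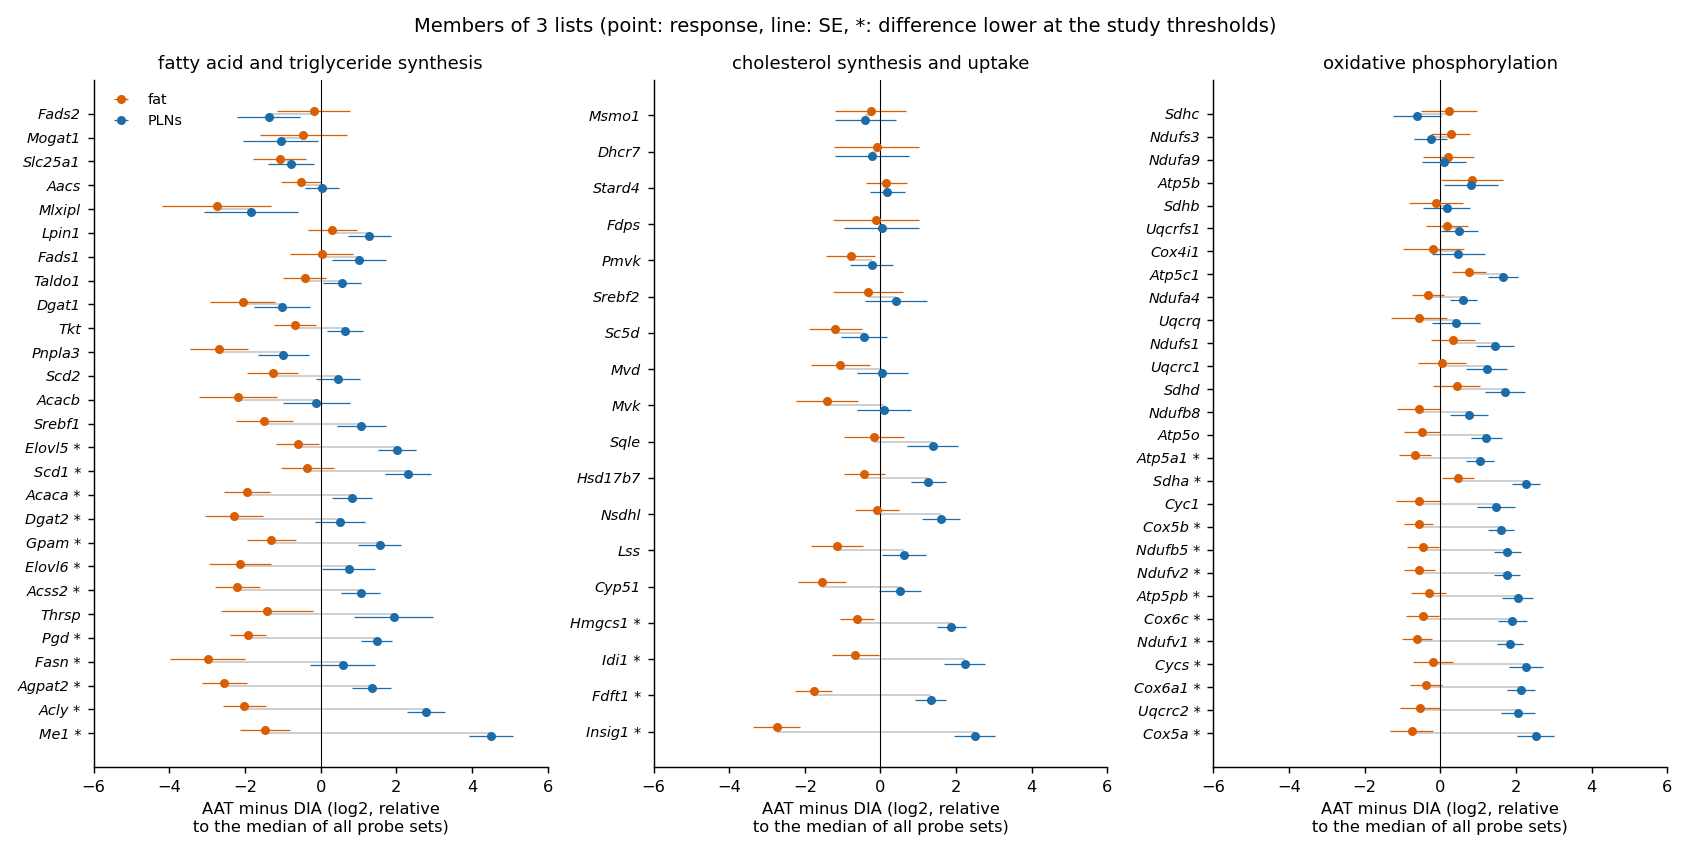
AAT minus DIA in fat (orange) and in PLNs (blue) for each member of 3 gene lists, as log2 relative to the median of all probe sets. Points are the fitted responses, lines their SE, and an asterisk marks the 12, 4 and 12 members lower in the difference at the study thresholds.

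Promoters of 4 of these genes are shown because most members of both lists lay on one side of the difference and their known regulators read short motifs. Searched were the sterol regulatory element letters TCACNCCAC, the E-box CACGTG and the CCAAT box CCAAT, on both strands, in the 250 bases before each transcription start of RefSeq (GRCm38.p6). Matches are in capitals (ATTGG is CCAAT on the other strand) and no matches overlapped.
Insig1 at chr5:28071162-28071411, plus strand, with 1 E-box and 1 CCAAT box: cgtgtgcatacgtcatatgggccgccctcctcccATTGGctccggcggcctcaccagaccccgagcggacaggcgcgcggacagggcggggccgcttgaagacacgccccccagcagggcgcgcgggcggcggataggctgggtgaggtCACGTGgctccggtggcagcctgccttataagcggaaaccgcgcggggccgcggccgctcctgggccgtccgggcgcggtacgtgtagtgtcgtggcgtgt
Hmgcs1 at chr13:119690101-119690350, plus strand, with 1 sterol element and 3 CCAAT boxes: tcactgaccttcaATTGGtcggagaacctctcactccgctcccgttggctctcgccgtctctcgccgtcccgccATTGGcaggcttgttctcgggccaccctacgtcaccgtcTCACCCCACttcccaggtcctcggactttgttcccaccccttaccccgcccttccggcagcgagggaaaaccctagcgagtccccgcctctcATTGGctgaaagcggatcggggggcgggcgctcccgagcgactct
Pgd at chr4:149166706-149166955, minus strand, the most upstream of 2 starts, with 2 CCAAT boxes: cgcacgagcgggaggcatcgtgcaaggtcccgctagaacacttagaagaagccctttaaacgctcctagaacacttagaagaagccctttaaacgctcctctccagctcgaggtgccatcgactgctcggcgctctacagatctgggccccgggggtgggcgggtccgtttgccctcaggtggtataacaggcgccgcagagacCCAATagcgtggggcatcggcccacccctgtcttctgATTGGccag
Me1 at chr9:86695915-86696164, minus strand, the most upstream of 2 starts, with no match: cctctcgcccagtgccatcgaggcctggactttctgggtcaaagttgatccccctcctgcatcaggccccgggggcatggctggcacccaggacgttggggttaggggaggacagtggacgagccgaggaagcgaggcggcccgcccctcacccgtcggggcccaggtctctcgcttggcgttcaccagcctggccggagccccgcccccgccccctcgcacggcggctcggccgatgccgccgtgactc
Promoters were found for 22 of the 27 fatty acid genes (28 promoters) and 14 of the 18 cholesterol genes (17 promoters). In the cholesterol list 1 promoter (5.88%) held the sterol letters, 4 (23.5%) the E-box and 14 (82.4%) CCAAT, against 1.05%, 6.02% and 33.8% of all 32851 promoters. In the fatty acid list 1 (3.57%), 3 (10.7%) and 14 (50%) held them. These matches describe letters in a window and do not show binding.

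Respiratory chain genes were lower in the difference mostly through PLNs. Of 28 nuclear genes of oxidative phosphorylation, 12 were lower (42.9%, against 4.67% of all genes) and 0 higher at the study thresholds. The medians were −1.25 in the difference, −0.36 in fat and 1.17 in PLNs. The median of the difference was −0.65 without PLN DIA array 1 and −2.17 without PLN DIA array 2. In PLN AAT 13 of the 28 were higher at the study thresholds (8.61% of all genes), 3 of them called, and in fat none passed in either direction. In 12 of the 28 every PLN AAT array lay above both PLN DIA arrays, which held for 8.13% of all genes.

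Complex IV, cytochrome c oxidase, had 4 of 5 genes lower with a median of −2.11, complex V, the ATP synthase, 2 of 5, and complex III with cytochrome c 2 of 6. Complex I, the NADH dehydrogenase, had 3 of 8 and complex II, succinate dehydrogenase, 1 of 4, where 4.67% of all genes were lower. Cox5a of complex IV had 18214 and 9516 in fat AAT, against 24486 and 21653 in fat DIA, and 49774, 16243, 19400 and 29667 in PLN AAT, against 3381 and 13626 in PLN DIA. Groups did not overlap in either tissue, but only the PLN side was called (2.53 ± 0.49, adjusted p 0.0453). Cox6a1 (2.12, adjusted p 0.0384) and the complex II flavoprotein Sdha (2.27, adjusted p 0.0268) also rose in PLN AAT.

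Of 20 genes of fatty acid oxidation 4 were lower (20%, against 4.67% of all genes) and 1 higher (5%, against 4.02%). Their medians were −0.40 in the difference, −0.09 in fat and 0.48 in PLNs. The median of the difference was −0.91 without PLN DIA array 2. It was 0.20 both without PLN DIA array 1 and with the Gapdh ratio as a covariate. Hadh, which oxidises 3-hydroxyacyl-CoA in mitochondria, had 23346 and 16380 in fat AAT, against 29041 and 34227 in fat DIA, and 18346, 11993, 21786 and 17401 in PLN AAT, against 3915 and 7463 in PLN DIA. It rose in PLN AAT by 2.23 ± 0.39 (adjusted p 0.0364), and fat gave −0.64 ± 0.45. The glycolytic Pgk1, phosphoglycerate kinase, was also among the genes named by rule, at −3.97 ± 0.64 (adjusted p 0.116). Its signals were 811 and 506 in fat AAT, against 2557 and 1825 in fat DIA, and 17878, 6311, 8900 and 8465 in PLN AAT, against 2032 and 4068 in PLN DIA. No group overlapped, and all 3 Pgk1 probe sets were negative.

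Of 17 adipocyte markers 3 were lower in the difference (17.6%, against 4.67% of all genes) and 0 higher. Of the 15 lower genes named by rule, Lpl, Ces1d, Ghr and Car3 are abundant in fat cells. Car3, a cytosolic carbonic anhydrase, had 87438 and 221769 in fat AAT, against 92274 and 136062 in fat DIA, and 1909, 19290, 10035 and 22543 in PLN AAT, against 228 and 166 in PLN DIA. Fat groups overlapped while every PLN AAT array exceeded both PLN DIA arrays, and the PLN side was called (6.20 ± 0.75, adjusted p 0.00213). Its difference was −5.79 ± 1.14 (adjusted p 0.226).

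Lpl, the lipase that frees fatty acids from circulating triglyceride, had 51103 and 27132 in fat AAT, against 61149 and 100873 in fat DIA, and 981, 5481, 8555 and 9089 in PLN AAT, against 274 and 284 in PLN DIA. The difference was −5.58 ± 1.02 (adjusted p 0.220) with 4.60 ± 0.67 in PLNs (adjusted p 0.00793). Ces1d, a carboxylesterase, was at −7.01 ± 1.32, and the growth hormone receptor Ghr at −5.75 ± 1.13. Both rose in PLN AAT (adjusted p 0.00916 and 0.0117).

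As a list, 17 adipocyte markers had medians of −1.46 in the difference, −0.43 in fat and 0.81 in PLNs. The 3 lower ones were Lpl, Car3 and the fatty acid carrier Fabp4 (−3.25 ± 0.77), all called in PLNs. Their summed signal was 11990 to 61902 in PLN AAT, against 4722 to 7475 in PLN DIA and 5515 to 10971 in PLN NOR, with the lowest PLN AAT array above all PLN DIA and NOR arrays. In fat it was 365870 to 464987 in AAT, against 338223 to 571548 in DIA. By single marker, 4 of the 17 had every PLN AAT array above both PLN DIA arrays, against 8.13% of all genes. In a PLN DIA array 1 marker was at the floor of 1. Adiponectin, Adipoq, a defining marker, overlapped between PLN groups at 46.2, 1570, 141 and 606 in PLN AAT, against 207 and 73.4 in PLN DIA. The list median was −0.57 without fat AAT array 2, −0.55 without fat DIA array 2 and −2.39 without PLN DIA array 1, and 0.30 with the Gapdh ratio as a covariate. The part of adipose tissue within the PLN samples in these results was not tested.

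**Figure D3:**
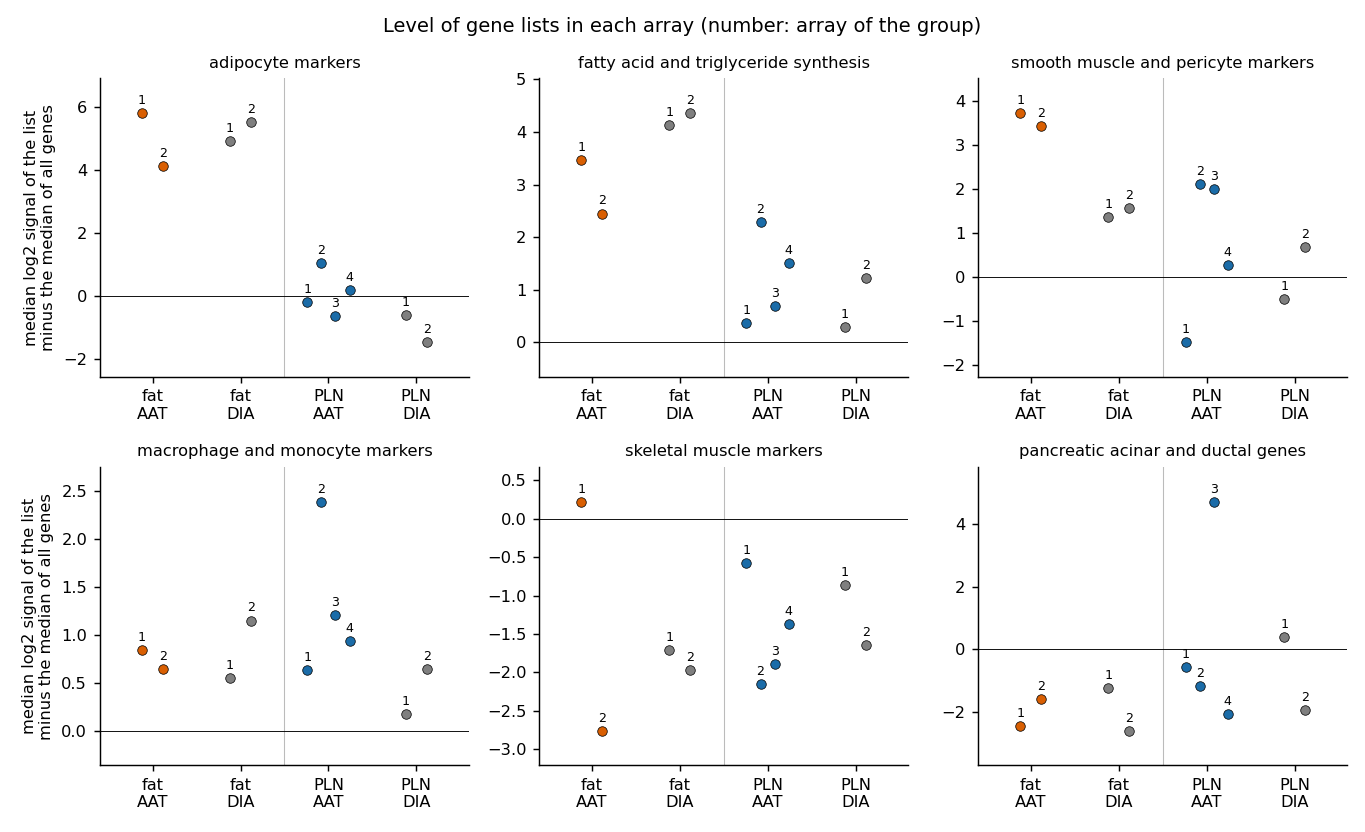
Level of 6 gene lists in each array: the median log2 signal of the list minus the median of all genes, with numbers naming the array within its group. Fat groups stand left of PLN groups and AAT left of DIA; the adipocyte list lies between 4.14 and 5.83 in fat and between −1.46 and 1.05 in PLNs.

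Macrophage genes had a negative median in the difference and a positive one in PLNs. Of 26 macrophage and monocyte markers 5 were lower (19.2%, against 4.67% of all genes) and 0 higher. Their medians were −1.04 in the difference, −0.15 in fat and 0.80 in PLNs. In PLN AAT 10 of the 26 were higher at the study thresholds (8.61% of all genes). The median of the difference was −0.66 without fat DIA array 2, −0.59 with the Gapdh ratio and −1.95 with the actin ratio as a covariate. Csf1r, the receptor for macrophage colony stimulating factor, had 4950 and 1944 in fat AAT, against 5460 and 7004 in fat DIA, and 22688, 20144, 34368 and 27022 in PLN AAT, against 3008 and 6870 in PLN DIA. Groups did not overlap in either tissue, and the difference was −3.96 ± 0.67 (adjusted p 0.166). It rose in PLN AAT by 3.07 ± 0.44 (adjusted p 0.00955), while 1 of its 3 probe sets had a positive difference.

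C1qb, a chain of complement C1q made by macrophages, had 2641 and 1986 in fat AAT, against 2896 and 7560 in fat DIA, and 13928, 19987, 19459 and 24868 in PLN AAT, against 4819 and 7919 in PLN DIA. It rose in PLN AAT as well (2.22 ± 0.40, adjusted p 0.0401). The summed signal of the 26 markers was 180948 to 289678 in PLN AAT, against 167065 and 169927 in PLN DIA and 97439 to 139162 in PLN NOR, so all PLN AAT sums were the higher ones. In fat the sums were 21261 and 27674 in AAT, against 28647 and 43191 in DIA.

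The list of VEGF ligands and receptors also held PDGF ligands, angiopoietins and the angiopoietin receptor Tek. Of its 16 genes 4 were lower in the difference (25%, against 4.67% of all genes). Among them Vegfc, the growth factor of lymphatic vessels, had 563 and 313 in fat AAT, against 521 and 297 in fat DIA, which overlapped. In PLN AAT it had 814, 2173, 1655 and 3301, against 31.5 and 35.6 in PLN DIA, and 592 to 1082 in PLN NOR. It rose in PLN AAT by 6.30 ± 0.85 (adjusted p 0.00237), and the difference was −6.11 ± 1.30 (adjusted p 0.293). The low group was PLN DIA, below both other PLN groups. Both its signals lay below 47.4, the 20th percentile of all values, so the size of the change is uncertain.

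Vegfd (−3.41), Vegfa (−2.88) and the angiopoietin receptor Tek (−3.65) also passed. The 16 had medians of −1.22 in the difference (−1.88 without fat AAT array 1), −0.22 in fat and 0.99 in PLNs. Of 24 endothelial markers 4 were lower (16.7%, against 4.67% of all genes) and 1 higher (4.17%, against 4.02%). Their median was −0.96, which was −2.16 without fat AAT array 1, −0.15 without fat AAT array 2 and 0.11 with the actin ratio as a covariate. Aplnr, the apelin receptor of endothelium, had 2198 and 565 in fat AAT, against 7254 and 2628 in fat DIA, and 7877, 1689, 7786 and 7703 in PLN AAT, against 518 and 5.26 in PLN DIA. Its difference was −9.12 ± 2.03 (adjusted p 0.294), with PLN DIA array 2 below the 20th percentile of all values, so its size is uncertain.

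Of 29 matrix and fibroblast genes 3 were lower (10.3%, against 4.67% of all genes) and 2 higher (6.9%, against 4.02%), near the background. Among them Col3a1, a fibrillar collagen (−3.60 ± 0.98), and Dpt, dermatopontin (−3.34 ± 0.84), rose in PLN AAT (adjusted p 0.0478 and 0.0112). The other lower genes named by rule were Rnf14, a ubiquitin ligase (−4.70), Fam120aos (−3.76), Zfhx3, a transcription factor (−3.72), Hacd1, of fatty acid elongation (−5.73), Fgf13, an intracellular growth factor homologue (−5.90), and Ndn, necdin (−3.81). All 15 were higher in PLN AAT than in PLN DIA relative to the median. In PLNs 14 were called (1.4% of all genes were called higher there), all but Insig1 (adjusted p 0.0678). At the study thresholds 5 were also lower in fat AAT (1.26% of all genes): Me1, Insig1, Acly, Pgk1 and Rnf14. Their adjusted p in the difference ran from 0.107 to 0.229, and in 7 both tissues had non-overlapping groups in opposite orders (1.29% of all genes). The choice by smallest p of the difference favours such genes and genes called in PLNs, so nothing is read from these counts. Of the 15, 2 had a single probe set and 7 had all probe sets on one side.

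**Figure D4:**
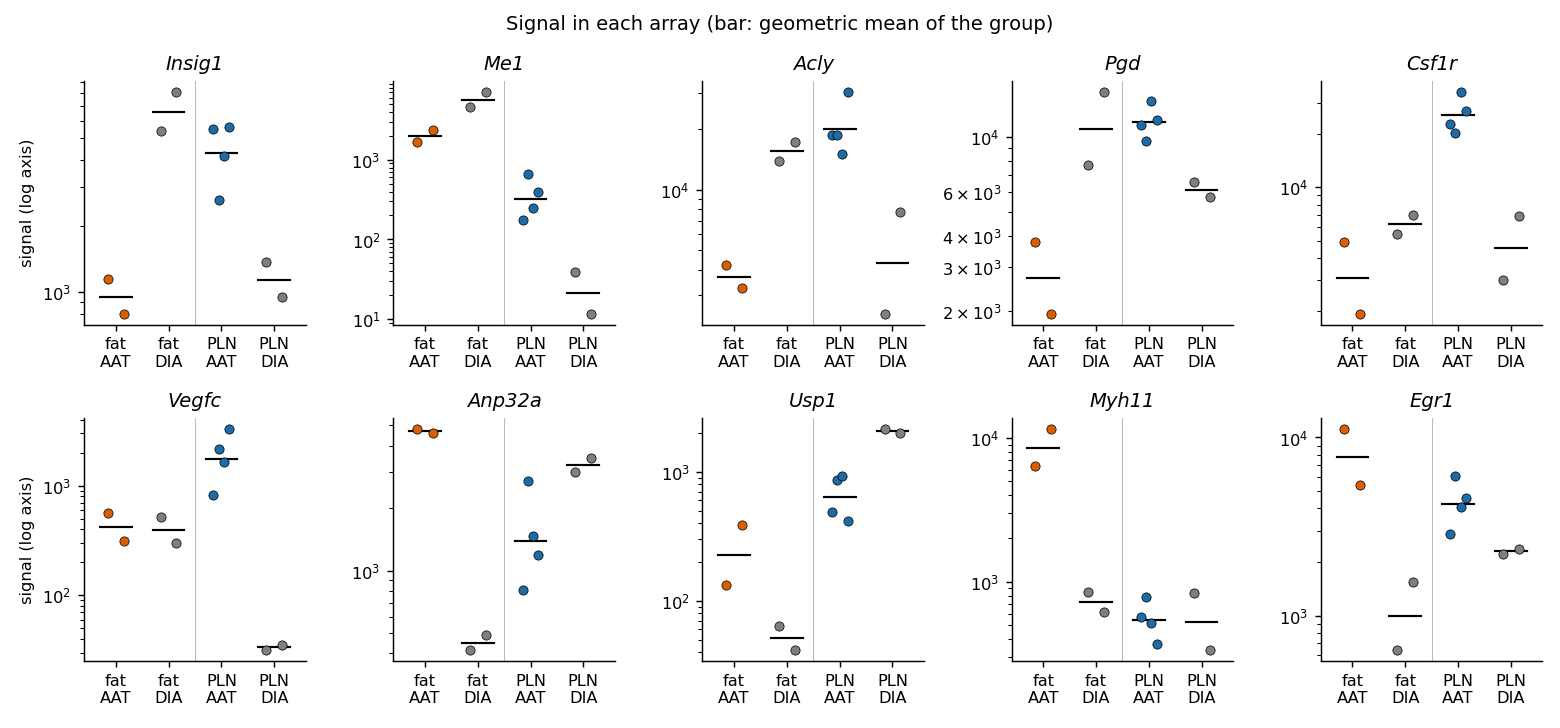
Signal of 10 genes in each array on log axes, fat AAT, fat DIA, PLN AAT and PLN DIA from left to right, with bars at the geometric mean of each group. Insig1, Me1, Acly, Pgd and Csf1r lie lower in fat AAT and higher in PLN AAT than in the DIA arrays of the same tissue, Anp32a and Usp1 the other way round.

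The 15 higher genes named by rule had no common pathway among the lists. Anp32a, a nuclear phosphoprotein that inhibits protein phosphatase 2A, had 4817 and 4591 in fat AAT, against 414 and 491 in fat DIA. In PLNs it had 810, 2712, 1462 and 1184 in AAT, against 2997 and 3484 in DIA. The groups were apart in both tissues in opposite orders, and fat NOR lay at 2789 and 3853, nearer to fat AAT. The difference was 4.11 ± 0.81 (adjusted p 0.107), but the other 2 of its 3 probe sets were below the median, down to −1.67.

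Usp1, a deubiquitinase of DNA repair, had 133 and 386 in fat AAT, against 64.1 and 41.4 in fat DIA, and 486, 865, 920 and 414 in PLN AAT, against 2145 and 1995 in PLN DIA. Itpr2, a calcium release channel, had 198 and 318 in fat AAT, against 61.6 and 70.4 in fat DIA, and 419, 258, 304 and 231 in PLN AAT, against 1425 and 1409 in PLN DIA. Both had non-overlapping groups in opposite orders, at differences of 3.37 ± 0.80 and 3.71 ± 0.88 (adjusted p 0.226 each). With means over probe sets the differences were 0.99 and 1.08. Itpr2 fell in PLN AAT (−1.68 ± 0.58, adjusted p 0.0468).

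Sfpq, a splicing factor, had 1344 and 1399 in fat AAT, against 952 and 942 in fat DIA, and 17048, 11161, 25120 and 15711 in PLN AAT, against 70204 and 49496 in PLN DIA. The PLN DIA arrays were the ones that stood out, since PLN NOR lay between 15410 and 20830. It fell in PLN AAT by 1.25 ± 0.34 on the log2 scale (adjusted p 0.012), and its difference was 1.89 ± 0.52. Of its 6 probe sets 4 were positive.

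In 6 of the 15 the study thresholds were passed in both tissues in opposite directions (Anp32a, Usp1, Itpr2, Pdlim3, Csrp1 and Cops2). In another 6 they were passed only in fat: Net1, an exchange factor for RhoA (3.59), Ncl, nucleolin (2.27), Rnf19b, a ubiquitin ligase (4.04), Pcp4, a calmodulin regulator (4.32), Ranbp9, a scaffold protein (1.93), and Nsd2, a histone methyltransferase (3.41). In Sfpq, Stard5, a sterol carrier (2.92), and Pfkfb3, which drives glycolysis through fructose-2,6-bisphosphate (2.60), only the PLN side passed. Adjusted p for the 15 ran from 0.107 to 0.320, and 9 had non-overlapping groups in opposite orders (1.21% of all genes). In PLN AAT 4 were called lower (0.533% of all genes): Sfpq, Itpr2, Stard5 and Pfkfb3. The choice by smallest p also favours both, so nothing is read from these counts. Of the 15, 3 had a single probe set and 2 had all probe sets on one side, so most rest on one probe set of several.

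Smooth muscle genes were higher in fat AAT. Of 15 smooth muscle and pericyte markers 4 were higher in the difference (26.7%, against 4.02% of all genes) and 0 lower. Their medians were 1.57 in the difference, 2.18 in fat and 0.72 in PLNs. The median of the difference was 0.73 without PLN AAT array 1 and 0.87 with means over probe sets. In fat 9 of the 15 were higher in AAT at the study thresholds, against 1.26% of all genes. Myh11, smooth muscle myosin, had 6346 and 11590 in fat AAT, against 849 and 617 in fat DIA and 346 and 3045 in fat NOR. In PLNs it had 568, 784, 515 and 370 in AAT, against 831 and 333 in DIA, where the groups overlapped.

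The differences were 3.05 ± 1.07 for Myh11, 5.81 ± 1.92 for calponin, Cnn1, and 4.91 ± 1.86 for enteric actin, Actg2, at adjusted p of 0.421, 0.421 and 0.488. Cnn1 had 1244 and 1912 in fat AAT, against 157 and 11.6 in fat DIA, of which 11.6 lies below the 20th percentile of all values. Pdlim3 and Csrp1, LIM domain proteins of muscle cells among the 15 genes named by rule, were at 3.57 ± 0.85 and 3.58 ± 0.99. The summed signal of the markers was 113303 and 152188 in fat AAT, against 30145 and 41439 in fat DIA and 15802 and 59226 in fat NOR. Whether the fat AAT samples held more vessel wall or other muscle was not tested.

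Of 15 skeletal muscle markers 2 were higher (13.3%, against 4.02% of all genes), Atp2a1 (4.53) and Actn3 (3.68), with a list median of 1.19. The list median was 0.34 without PLN DIA array 1, 2.50 without fat AAT array 2 and −0.08 without fat AAT array 1, in which the summed signal was 7375, against 1887 in fat AAT array 2, and 2347 and 3199 in fat DIA.

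The list medians of islet genes (1.27) and of mammary and other epithelial markers (1.48) were above 0.5 through lower PLN AAT signals, at −1.16 and −1.25 in PLNs. Without PLN DIA array 1 the islet and epithelial medians were 0.48 and 0.12, without fat AAT array 2 they were 0.66 and 0.92, and with the Gapdh ratio as a covariate 0.014 and −0.49. Both lists rest largely on low signals. With low values raised to the 20th percentile the islet and epithelial medians were 0.69 and 0.67. Among probe sets from the 60th percentile up the epithelial median was −0.15, and the islet list gave no median. Of 17 islet genes 2 were higher in the difference (11.8%, against 4.02% of all genes) and 7 were lower in PLN AAT (11.3% of all genes). Ptprn, the islet granule autoantigen IA-2, had 14.9 and 74.1 in fat AAT, against 24.3 and 10.4 in fat DIA, and 6.31, 7.35, 6.26 and 4.56 in PLN AAT, against 381 and 113 in PLN DIA. It fell in PLN AAT by 4.52 ± 1.01 on the log2 scale (adjusted p 0.0176), and PLN NOR lay between 187 and 305. All 4 PLN AAT signals lay below 47.4, the 20th percentile of all values, so the size of the change is uncertain. Summed islet signals were 386 to 2006 in PLN AAT, against 1208 and 6140 in PLN DIA, and pancreatic acinar signals 1774 to 448467 in PLN AAT, the highest in array 3, against 2665 and 20857 in PLN DIA. The part of pancreatic tissue in these samples was not tested.

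Lymphocyte lists had medians that moved with single arrays. B cell markers had a median of 0.01, T cell markers 0.13, germinal centre markers −0.01, MHC class II genes −0.17 and interferon-stimulated genes 0.02, with 1, 1, 0, 0 and 2 genes past the thresholds. Without PLN DIA array 1 the B cell, germinal centre and MHC class II medians were 0.90, 0.55 and 0.51, and without PLN DIA array 2 they were −0.93, −0.91 and −0.77. T cell and interferon medians were −0.28 and −0.42 without PLN DIA array 2, and −1.32 and −0.92 with the actin ratio as a covariate. Regulatory T cell markers had 0.51 and 2 of 13 higher (15.4%, against 4.02% of all genes). Their median was 1.09 without PLN DIA array 1, −0.14 without PLN DIA array 2 and −0.33 with means over probe sets. Of them Tnfrsf18 (GITR) had 199 and 176 in fat AAT, against 45 and 101 in fat DIA, and 466, 1373, 766 and 489 in PLN AAT, against 2370 and 1401 in PLN DIA. Of 17 type 1 and cytotoxic effector genes, another list, 1 was higher (5.88%, against 4.02% of all genes) and 1 lower (5.88%, against 4.67%). Their median was 0.30, and −0.055 without PLN DIA array 2. In PLNs 8 lay above and 9 below the median of all genes. Of that list Il2rb, the shared beta chain of the IL-2 and IL-15 receptors, had 69.8 and 251 in fat AAT, against 106 and 55.2 in fat DIA. In PLNs Il2rb had 200, 191, 299 and 151 in AAT, against 2713 and 896 in DIA. It fell in PLN AAT by 2.35 ± 0.68 on the log2 scale (adjusted p 0.0342), with a difference of 3.25 ± 1.04 (adjusted p 0.372).

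Tnf, on which the study centres, had 20.9 and 40.2 in fat AAT, against 25.6 and 100 in fat DIA, and 24.5, 55.4, 36 and 88.8 in PLN AAT, against 42.7 and 107 in PLN DIA. All 4 groups were low and overlapped within each tissue, below the 233 to 382 of PLN NOR. The difference was −0.71 ± 1.42 (adjusted p 0.976). Of 23 genes of the TNF and NF-kB pathway 1 was higher (4.35%, against 4.02% of all genes), Nfkb2 (2.17), and 0 lower. Their medians were −0.55 in the difference, 0.27 in fat and 0.74 in PLNs. The median of the difference was −0.011 without PLN DIA array 1, −1.11 without PLN DIA array 2 and 0.033 with means over probe sets. Insulin signalling genes had 2 of 28 lower (7.14%, against 4.67% of all genes), the insulin receptor Insr (−2.35) and the phosphodiesterase Pde3b (−2.56). Their list median was −0.78, which was −0.48 without fat AAT array 2.

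A list of 37 genes was taken from the table and hub lists of the paper, where they had been chosen on these samples, so their direction is not independent evidence. In the difference 9 of them were lower (24.3%, against 4.67% of all genes) and 4 higher (10.8%, against 4.02%). The lower ones included Insig1, Pgd, Acaca, Vegfa and the stress kinase p38 alpha, Mapk14. Mapk14 had 1435 and 1148 in fat AAT, against 1861 and 2478 in fat DIA, and 4413, 7482, 3017 and 6847 in PLN AAT, against 1426 and 2796 in PLN DIA, with no overlap in either tissue. Its difference was −2.58 ± 0.63 (adjusted p 0.417). The higher ones were Net1, Egr1, Myc and Psmd7.

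Glucocorticoid response genes had medians of 1.00 in fat and 1.23 in PLNs, with 7 of 17 higher in each tissue at the study thresholds, against 1.26% of all genes in fat and 8.61% in PLNs. In the difference their median was −0.16, with 1 of 17 past the thresholds. It was −0.58 without fat AAT array 1, 0.86 without fat AAT array 2, 0.44 without PLN DIA array 1 and 0.95 with the Gapdh ratio as a covariate. Pdk4, which blocks pyruvate oxidation in fasting, had 10568 and 7964 in fat AAT, against 1828 and 1732 in fat DIA, and 1637, 720, 693 and 3452 in PLN AAT, against 717 and 456 in PLN DIA. Its difference was 0.71 ± 0.84, where the 2 tissues had 2.41 ± 0.64 and 1.76 ± 0.55.

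Immediate early genes had 0.58 in fat and 0.65 in PLNs, and −0.03 in the difference (−0.45 without fat DIA array 1 and 0.64 with the Gapdh ratio). Of the 28, 5 were higher (17.9%, against 4.02% of all genes) and 1 lower (3.57%, against 4.67%). Egr1, an immediate early transcription factor, had 11184 and 5425 in fat AAT, against 640 and 1541 in fat DIA, and 2881, 6099, 4053 and 4582 in PLN AAT, against 2230 and 2367 in PLN DIA. AAT arrays were the higher ones in both tissues, by more in fat (difference 1.60 ± 0.69, adjusted p 0.459).

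**Figure D5:**
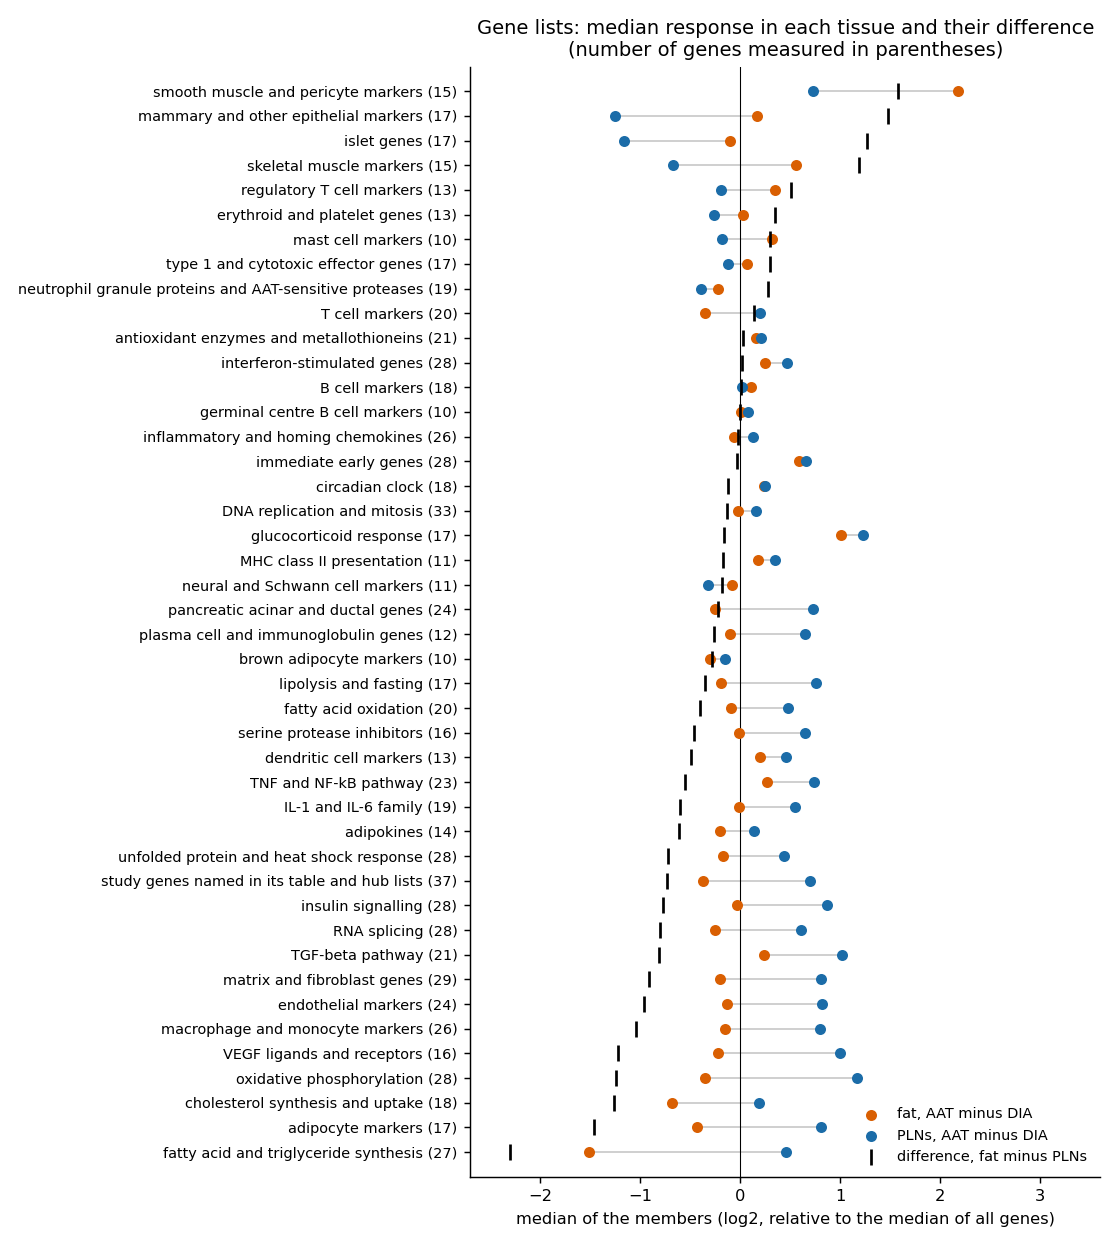
Median AAT minus DIA of 44 gene lists in fat (orange) and in PLNs (blue), and median fat-minus-PLN difference (black bar), as log2 relative to the median of all genes. Of the lists 16 lie below −0.5 and 5 above 0.5 in the difference, and 23 lie between.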

How the data were processed

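RNA from fat and PLNs of NOD mice, extracted with Trizol, was amplified and biotin-labelled by the WT-Ovation Pico method, per the labels, and hybridized to Affymetrix Mouse 430 2.0 arrays. The deposited values are intensity values on a linear scale, 1 per probe set, made by the authors with MAS5 (per the submitters' processing notes, version not given in the sources used here). The 2% trimmed mean is the same in every array. Scaling to a trimmed mean leaves the array medians unequal, which moves the median difference of all probe sets. The study's methods name RMA values and RankProd, which were not used here. RankProd compares 2 groups and has no interaction term.

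Values under 1 were set to 1 and log2 was taken. After 64 control probe sets were left out, 45037 were tested, of which 34945 name 1 gene, 932 several and 9160 none, and 34741 had their symbols updated through current identifiers. A mean for each of the 7 groups of all 19 arrays was fitted with limma 3.58.1 in R 4.3.3 (12 residual degrees of freedom), with a variance trend in eBayes and Benjamini-Hochberg adjustment over all probe sets. The fitting steps were tested on simulated data into which changes had been placed. Groups came from the sample titles. With 2 to 4 arrays per group, their number limits the precision, and p-values reflect only the spread between these arrays, which may be technical.

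The members and the 44 lists (872 of 953 entries measured) were chosen with earlier results of these data known, so lists are described by counts and medians and not tested, and role groups within 2 lists were made after their values were seen. In lists a gene is represented by the brightest probe set that names it alone. Named were, for each direction, the 15 genes of smallest p among probe sets of 1 gene that passed the study thresholds, had a mean signal at or above the median and kept their sign with each of the 10 arrays left out. Also named were up to 4 members of a list by p and up to 2 by mean, study genes, and Tnf. Other list members past the thresholds are named after their values were seen.

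Alternatives were the 4 groups alone, replicate blocks, filters that kept probe sets from the 40th or the 60th percentile of mean signal up, quantile normalization over all arrays or within tissues, median centring, raising low values to the 20th percentile, adding 32 before taking log2, no variance trend, array weights, the actin ratio as a covariate, averaging all probe sets that name a gene, and leaving out each array. Leaving out PLN AAT arrays 2 and 4 together and the Gapdh ratio as a covariate were chosen after seeing the data. Promoter windows came from RefSeq (GRCm38.p6).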

Additional observations from a re-analysis of the deposited data

Results flagged for a closer look

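In the 4 PLN AAT arrays, 74 gene values and list levels were checked for 1 array far from the others, and 4 had a gap to the nearest array, as a share of the whole range, above Dixon's critical value. Chance alone marks about 1 group in 20. Ndn had a gap of 0.931, with array 1 low at 1277 and the others at 2036 to 2108. The matrix and fibroblast list had 0.946, with array 1 low at 0.90 and the others at 2.40 to 2.48 (median log2 signal minus that of all genes). The adipokine list had 0.878, with array 3 low at −0.76 and the others at −0.35 to −0.30. The RNA splicing list had 0.854, with array 4 high at 5.80 and the others at 4.73 to 4.89.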

How the results depend on the processing

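The number of probe sets called in the fat-minus-PLN difference was 0 under every alternative that kept all 10 arrays. With 1 array left out it ran from 0 to 339 (339 without PLN DIA array 2, and 3 without PLN DIA array 1, PLN AAT array 1 or fat DIA array 2), and with PLN AAT arrays 2 and 4 left out it was 5. The 3667 probe sets past the study thresholds became 2069 with only the 4 groups, 1963 among probe sets from the 60th percentile up and 1305 after averaging the probe sets that name a gene, which test fewer arrays or features, and 1917 with the actin ratio as a covariate, for which the cause was not tested. With 1 array left out they ran from 1947 (without fat AAT array 2) to 6715 (without PLN DIA array 2), with 2372 without PLN DIA array 1. Lower ones made up 37.0% of them, against 76.2% after median centring, 58.1% after quantile normalization, 58.7% after quantile normalization within tissues and 55.7% among probe sets from the 60th percentile up. With the Gapdh ratio as a covariate 3425 passed, of which 51.1% were lower.

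In fat the count of 0 called became 1 with quantile normalization, 3 and 5 with array weights per tissue and per array, and 2 with the Gapdh ratio as a covariate, and ran from 0 to 6 with 1 array left out (6 without fat DIA array 2). In PLNs the 694 called became 27 with the 4 groups alone, 290 and 411 with quantile normalization over all arrays and within tissues, and 1487 with median centring. They were 244 without a variance trend, and 94 and 0 with array weights per tissue and per array. With the actin and the Gapdh ratio as covariates they were 64 and 712, and with means over probe sets 108. The cause was not tested. With 1 array left out they ran from 39 to 2642.

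Replicate numbers are shared between groups, and the labels do not state whether same-numbered arrays belong together. Deviations of same-numbered arrays from their group means correlated at −0.13 to 0.20. In a group of 2 arrays the deviations mirror each other, so these values cannot settle whether the numbers pair arrays. With the number as a replicate block, 92 probe sets were called in PLNs, 0 in fat and 0 in the difference.

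Of 834 values of the 31 named genes under the alternatives, 805 kept their direction and side of the threshold, 24 passed it (most without PLN DIA array 2) and 5 reversed. Stard5 was at −0.079 with means over probe sets. Tnf ran from −1.74 (without fat DIA array 1) to 0.35 (without fat DIA array 2) with 1 array left out, and was at 0.19 without PLN DIA array 1, 0.16 with PLN AAT arrays 2 and 4 left out and 0.53 with the Gapdh ratio. Of 1186 list medians, 130 moved by more than their spread and 166 had another sign. The fatty acid synthesis, cholesterol, oxidative phosphorylation, VEGF, macrophage and smooth muscle lists kept their sign in all 27 alternatives. The adipocyte list did so in 26, and was at 0.30 with the Gapdh ratio as a covariate.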
